A study of Mus musculus with 27 samples.

Results

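The comparison of the embryonic heart (Ca) with the branchial arch (BA) rested on 6 of the 27 RNA-seq libraries of the series, 3 of each tissue, chosen by their tissue labels. Both tissues came from E10.5 embryos of the Slc:ICR strain, an outbred mouse stock, with no treatment or transgene named. The other 7 groups, of 3 libraries each, were tail bud, limb buds of 2 stages and limb bud-like tissue made from mouse ES cells, and they entered only the scaling of the libraries and 1 alternative fit. The tissues were dissected whole and no cell sorting is named for them, so each library can hold any cell type of its organ. The labels do not say whether a library is 1 embryo or a pool. The authors took the tissues from 3 embryos, without saying whether this number holds for each library. The p-values measure only the spread between these libraries. Xist, the RNA of the inactive X chromosome, and the Y-linked Ddx3y were both above 0 in all 6 libraries. Their levels differed between replicates of a tissue, described at the end.

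At E10.5 the heart is a beating, looped organ with a muscle wall, the myocardium, an inner endocardium that makes the valve cushions, and an outer epicardium that is just spreading over it. The branchial arches are paired outgrowths beside the pharynx, filled with mesenchyme that is mostly of neural crest origin, with a core of mesoderm that makes head muscle, an ectodermal cover and an endodermal lining. Both structures are linked in development, as progenitors of the second heart field lie in pharyngeal mesoderm behind the arches and add to the poles of the heart. Homeobox factors of the Dlx family set the upper and lower identity of arch mesenchyme, while Nkx2-5, Gata and T-box factors act together on the genes of the contractile apparatus in heart muscle.

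Values are given as scaled CPM, the deposited CPM of a gene (its share of the reads of a library, set so that the library sums to 1000000) divided by a scaling factor of the library, in the order of replicates 1, 2 and 3 of each tissue. Differences are fold changes of mean scaled CPM, or log2 fold changes of heart over arch with their standard error (SE) on the log2(scaled CPM + 0.5) scale, on which genes with few reads show less than their true change. A gene was called when limma's moderated test gave a Benjamini-Hochberg adjusted p below 0.05 and the fold change was at least 2. Of 23279 genes listed, 13359 had at least 1 CPM in at least 3 of the 6 libraries and were tested. 26.7% of them were called, with 2297 genes (17.2%) higher and 1269 (9.5%) lower in heart. With the adjusted p alone, 74.5% passed, 4974 higher (37.2%) and 4981 lower (37.3%), and for 77.7% the libraries of the tissues did not overlap. These shares are the background against which each group of genes is read. The median log2 fold change of all tested genes was -0.02.

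The libraries held between 7431869 and 8541931 reads by the spacing of their low values, at which a count of 3 reads is worth 0.351 to 0.404 CPM as deposited. Replicates stayed close, yet 4 of the 6 libraries stood apart in at least 1 group of genes each. Heart replicate 2 had far more of the hepatic and visceral endoderm transcripts, with summed scaled CPM of 5 markers at 42.5, 1707 and 269 in the hearts. Branchial arch replicate 1 had the most neuronal transcript, at 156, 31.6 and 82.2 for 3 markers in the arches. Heart replicate 3 carried more of some arch mesenchyme genes, such as Alx4, and branchial arch replicate 3 more of some heart genes, such as Myh7. Within their tissue, heart replicate 2 was also highest in platelet markers, arch replicate 1 in crest and glial markers and heart replicate 3 in arch epithelial markers. Values with and without these libraries are given where they touch a result. As these are bulk tissues, fewer cells of a type and less RNA per cell cannot be told apart.

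The markers of each tissue were high in the libraries labelled with it. Myl2, the regulatory myosin light chain of the ventricle at chr5:122092724-122113473 of GRCm38 (mm10), had 4243, 3316 and 3181 scaled CPM in the 3 hearts and 0.228, 0.354 and 0.119 in the 3 arches. The arch values are those of 1 to 3 reads per library, so that its log2 fold change of 12.25 ± 0.14 (SE), the largest of all genes in heart, depends on the pseudocount (adjusted p = 2.7e-11). Dlx5, a homeobox factor of the lower jaw at chr6:6877801-6882068, had 0.5299, 0.853 and 0.696 scaled CPM in the hearts and 72.4, 79.9 and 84.2 in the arches. It was 114-fold higher in arch, with a log2 fold change of -6.06 ± 0.15 (SE) and an adjusted p of 7.7e-13. Neither gene came near to overlapping between the tissues.

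**Figure D1:**
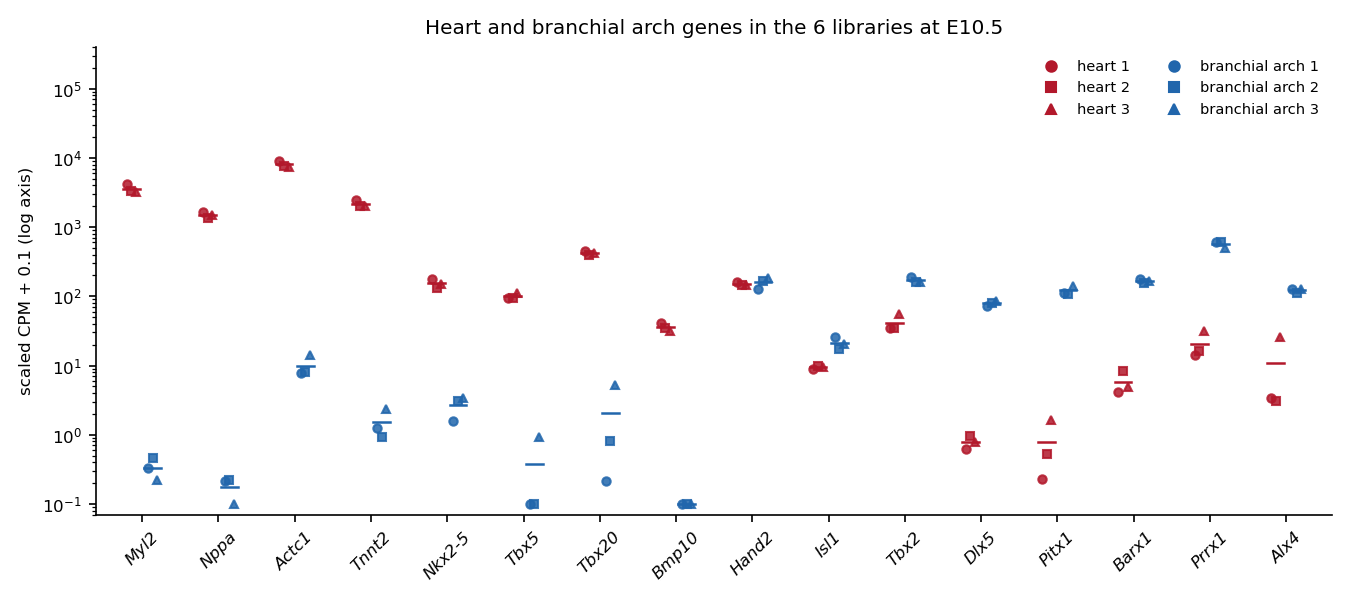
Scaled CPM + 0.1 (log axis) of 16 genes in each of the 3 heart (red) and 3 branchial arch (blue) libraries. Marker shapes give the replicate, bars the mean. Hand2 is the gene whose libraries overlap, Bmp10 is at 0 in every arch, and heart replicate 3 lies above the other hearts for Alx4.

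The contractile apparatus had the largest median difference of the 25 gene lists examined. Of the 48 genes of the sarcomere and its regulators, 46 were tested and 46 of 46 were called higher in heart, against 17.2% of all genes, with a median log2 fold change of 7.56. Their summed level was 51646, 42882 and 43686 scaled CPM in the hearts and 479, 535 and 586 in the arches, 86.3-fold higher in heart. The count was 46 with any single replicate left out. No member fell.

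Myosin genes led this group. Myh7, the slow beta-myosin heavy chain, had 4969.8, 4009 and 4417 scaled CPM in the hearts and 0.797, 0.708 and 11.2 in the arches. Branchial arch replicate 3 was the one arch library with a clear level of it, and the log2 fold change was 10.72 ± 1.06 (SE) with all libraries (adjusted p = 8.1e-04) and 11.80 without that replicate (adjusted p = 3.5e-15). Myh6, the alpha-myosin heavy chain of the atria and early tube, had 2725, 2526 and 2737 in heart and 0.342, 0.236 and 2.15 in arch. It was 2928-fold higher in heart, over an arch mean that came mostly from replicate 3. Both heavy chains were present at high levels in the E10.5 heart. The light chains of the atrium, Myl7 and Myl4, rose by 10.27 and 10.87 on the log2 scale, next to 10.86 for Myl3, the essential light chain of the ventricle. Genes listed as markers of ventricle and of atrium were both high, at 11392, 8998 and 9326 summed scaled CPM for 5 ventricular genes. The 5 atrial genes summed to 9246, 7938 and 8366. Nearly all of the atrial total came from Myh6, Myl4, Myl7 and Nppa, and Sln, the other member, added almost nothing. The chamber that these transcripts came from was not tested.

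Thin filament genes followed. Actc1, the cardiac alpha-actin, had 9078, 7620.3 and 7497 scaled CPM in the hearts and 7.63, 8.03 and 13.98 in the arches, 816-fold higher (adjusted p = 6.7e-06). Acta1, the actin of skeletal muscle, was 439-fold higher over low arch levels of 0.569, 0.354 and 1.55 scaled CPM. Acta2, the actin of smooth muscle, was 99.5-fold higher. These actins are near-identical in sequence and how reads that match several genes were counted is not given in the sources used here, so the share of each is uncertain, and the same holds for Myh6 and Myh7. The cardiac troponins Tnnt2, Tnni3 and Tnnc1 rose by 10.22, 8.02 and 9.01 on the log2 scale. Tnni1, the slow skeletal troponin I that the fetal heart uses, rose by 9.01 and had 1510.2, 1211 and 1206 scaled CPM in the hearts and 0.797, 2.36 and 3.82 in the arches. The smallest differences of the group belonged to genes with a clear level in the arch. Tpm1, an alpha-tropomyosin that many cells use, had 2954, 2482 and 2554 in heart and 275, 309 and 295 in arch, 9.09-fold higher in heart, and Fhod3, an actin-assembly formin, 6.495-fold.

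Structural and stress-response genes of the sarcomere moved the same way. Ttn, the giant spring protein titin, had 683, 661 and 938 in heart and 2.73, 2.24 and 4.18 in arch, with heart replicate 3 highest. Mybpc3, the cardiac myosin-binding protein C, rose by 10.71 ± 0.74 (SE), and the Z-disc proteins Csrp3 and Ankrd1 by 9.17 ± 0.20 (SE) and 9.17 ± 0.60 (SE) on the log2 scale. Des, the intermediate filament desmin, was 41.8-fold higher in heart, with 16.3, 20.8 and 18.04 scaled CPM in the arches.

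Promoter sequence was read for the sarcomere genes because they moved as a block. RefSeq promoters on GRCm38.p6, the 250 bases before the start, were matched for 38 of the 46 genes tested (82.6%). The CArG box, the binding site of serum response factor, stood in 8 of the 38 (21.1%), in Myl3, Myl7, Myl9, Actc1, Acta1, Myom1, Ldb3 and Nebl, searched by its name on both strands, while 1.62% of all 27025 genes of the promoter table and 1.445% of the 10517 tested genes with a promoter hold one. The M-CAT element CATTCC, which TEAD factors bind, stood in 15 of the 38 (39.5%) against 14.4% of all genes and 12.96% of those tested. Of the other motifs searched, the MEF2 motif stood in 4 (10.53%, against 3.42% of all genes and 2.01% of those tested) and the GATA motif AGATAA in 8 (21.1%, against 11.4% and 7.09%), both on either strand. TATAAA on the strand of the gene stood in 3 (7.89%, against 8.94% of all genes and 4.69% of those tested). These are matches of letters and not sites of binding. The 110 bases before the start of 3 genes show the CArG boxes in place, in capitals, on the strand of the gene. Matches of CATTCC and TATAAA are also in capitals where present.
Actc1, chr2:114052876-114052985, minus strand: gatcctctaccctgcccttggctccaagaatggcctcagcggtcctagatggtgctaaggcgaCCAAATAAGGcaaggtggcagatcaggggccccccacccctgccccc
Acta1, chr8:123894776-123894885, minus strand: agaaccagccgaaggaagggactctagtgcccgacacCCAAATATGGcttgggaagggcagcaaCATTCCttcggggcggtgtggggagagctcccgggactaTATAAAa
Myl7, chr11:5898783-5898892, minus strand: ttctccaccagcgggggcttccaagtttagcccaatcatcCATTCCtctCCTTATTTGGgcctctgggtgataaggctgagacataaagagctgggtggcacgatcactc
In Actc1 the CArG box spans bases 47 to 38 before the start. In Acta1 it spans bases 73 to 64, with the M-CAT element at 46 to 41 and TATAAA at 7 to 2 before the annotated start. In Myl7 the M-CAT element at 70 to 65 lies next to the CArG box at 61 to 52. Other lists, described later, also held CArG boxes, such as cardiac transcription factors in 3 of 24 matched promoters (12.5%) and erythroid genes in 2 of 18 (11.1%). Of 34 promoters of calcium handling genes and 65 of oxidative phosphorylation subunits, 0 hold one. With 1.445% of tested genes holding a box, counts of 0 in lists of this size give no contrast.

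Genes of calcium handling and excitability were higher in heart for 39 of 46 tested, and 1 fell, against 17.2% and 9.5% of all genes. Their median log2 fold change was 3.61. The natriuretic peptides, hormones that the stretched heart wall secretes, were in this group. Nppa had 1665, 1335 and 1475 scaled CPM in the hearts and 0.114, 0.118 and 0 in the arches, at most 1 read per arch library (log2 fold change 11.34 ± 0.11 (SE), adjusted p = 1.1e-16), and Nppb had 100.3, 81.3 and 74.9 in heart and 0, 0 and 0.239 in arch. The store of calcium had both its pump and its brake. Atp2a2, the calcium pump of the reticulum, had 2195, 1960.3 and 2061 in heart and 311, 299 and 290.4 in arch, a 6.903-fold difference over a high level in the arch. Pln, the inhibitor phospholamban, had 469.9, 351 and 364 in the hearts and 0, 0.354 and 0.836 in the arches. Ryr2, the release channel, rose 298-fold and Slc8a1, the sodium-calcium exchanger, 94.7-fold. Casq1, the calsequestrin named for skeletal muscle, had 367, 315 and 305 scaled CPM in the hearts and 0.455, 1.06 and 0.597 in the arches. Casq2, the cardiac form of this calcium-binding protein, had 33.4, 20.3 and 32.9 in the hearts and 0.455, 0.472 and 0.119 in the arches. Both were near the floor in the arches.

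Ion channels and connexins split. Hcn4, the pacemaker channel, had 57.9, 61.1 and 63.3 in heart and 2.73, 3.78 and 4.66 in arch, 16.3-fold higher in heart (adjusted p = 7.5e-11). The T-type calcium channels went opposite ways. Cacna1h had 170.0, 145 and 152 scaled CPM in the hearts and 47.6, 39.9 and 53.2 in the arches and rose 3.32-fold, while Cacna1g had 7.95, 9.67 and 27.8 in heart and 125, 113 and 126 in arch and fell by 3.17 on the log2 scale (adjusted p = 0.0054, and 0.089 without heart replicate 2 and arch replicate 1). Gja5, the connexin of fast-conducting muscle, rose 8.55-fold. Gja1 and Gjc1, connexins 43 and 45, had levels 1.504-fold and 1.46-fold higher in arch, past the adjusted p (3.3e-07 and 4.4e-05) and under the 2-fold limit.

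Cardiac transcription factors were higher in heart for 24 of 39 and lower for 6, with a median log2 fold change of 2.17. Nkx2-5, the homeobox factor of cardiac progenitors and muscle, had 178, 131 and 151 scaled CPM in the hearts and 1.48, 2.95 and 3.35 in the arches, 59.1-fold higher (adjusted p = 4.3e-06). The zinc finger factors Gata4, Gata5 and Gata6 rose by 8.59 ± 0.64 (SE), 6.31 ± 0.48 (SE) and 5.86 ± 0.40 (SE) on the log2 scale. Their small arch levels sat mostly in replicate 3, where Gata4 was 0, 0.118 and 1.67 over the 3 arches, and without it the log2 fold change of Gata4 was 9.25. Tbx5, the T-box factor of the left ventricle and atria, had 94.9, 92.98 and 112 in heart and 0, 0 and 0.836 in arch. Tbx20, another T-box factor of heart muscle and endocardium, had 456, 390.0 and 415 in heart and 0.114, 0.708 and 5.14 in arch, and its log2 fold change moved from 8.03 to 8.93 without arch replicate 3 (adjusted p = 0.0014 and 4.7e-05). Myocd, the coactivator of serum response factor, rose by 5.97 ± 0.18 (SE), and the ventricular factors Irx4 and Hey2 11.2-fold and 21.6-fold.

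Other regulators of the heart did not separate the tissues in this way. Hand2, which both heart and arch mesenchyme use, had 161, 146 and 146 scaled CPM in the hearts and 129, 165 and 186 in the arches. The libraries overlapped, and the log2 fold change of -0.07 ± 0.13 (SE) did not pass the test (adjusted p = 0.66). Hand1, its relative in the left ventricle, had 85.8, 64.4 and 80.9 in heart and 32.8, 39.1 and 40.5 in arch, and at 2.06-fold it sat on the 2-fold limit, with log2 fold changes of 0.93, 0.94 and 0.99 without arch replicate 1, heart replicate 1 or heart replicate 3. Tbx2, a repressor of chamber genes that is also a factor of arch mesenchyme, had 34.6, 35.3 and 55.3 in the hearts and 192, 161 and 163 in the arches, 4.12-fold higher in arch (adjusted p = 4.0e-04). Tbx3, its relative of the conduction system, was 2.63-fold higher in arch and Nfatc4, a calcium-regulated factor, 6.52-fold. Isl1, the factor of second heart field progenitors, had 8.74, 9.81 and 9.47 in heart and 25.5, 17.2 and 20.6 in arch and fell by 1.12 on the log2 scale (adjusted p = 8.3e-06), and by 0.97 without arch replicate 1, which is under the 2-fold limit.

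The second heart field and outflow tract genes were divided, 5 higher and 9 lower in heart of 17 tested. The shares of all genes were 17.2% and 9.5%. The median log2 fold change of the list was -1.09. Higher in heart were genes of the outflow tract itself. Wnt11, a ligand of outflow muscle, had 34.7, 31.1 and 32.997 scaled CPM in the hearts and 4.55, 3.42 and 2.39 in the arches (9.53-fold). The guidance genes Nrp1, a semaphorin receptor, and Sema3c, one of its ligands, rose 4.398-fold and 2.74-fold. Lower in heart were genes of the pharyngeal progenitors. Eya1, a transcriptional coactivator, had 5.697, 4.83 and 6.54 scaled CPM in the hearts and 85.8, 87.9 and 71.8 in the arches and was 14.4-fold higher in arch. Fgf8, a growth factor of pharyngeal epithelium and mesoderm, had 0.795, 0.427 and 0.278 in heart and 9.11, 12.7 and 8.603 in arch. Tbx1, the T-box factor of pharyngeal mesoderm, had 1.06, 2.27 and 5.71 in heart and 7.97, 9.56 and 17.9 in arch, and was called (adjusted p = 0.032) only with heart replicate 2 and all arch replicates in the fit, with adjusted p of 0.055, 0.075 and 0.062 without arch replicates 1, 2 and 3 and 0.11 without heart replicate 2.

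Endocardial and cushion genes were higher in heart for 27 of 39 and lower for 2, with a median log2 fold change of 1.32. Bmp10, a ligand of the trabeculae that line the chambers, had 41.2, 34.7 and 31.3 scaled CPM in the hearts and was listed at 0 in every arch. Genes of the cushions and their matrix followed, with Hapln1, a link protein of hyaluronan, at 386, 313 and 309.9 in heart and 26.2, 30.5 and 18.4 in arch (13.5-fold) and Bmp2, the myocardial signal for cushion formation, at 23.1, 22.3 and 22.97 in heart and 1.59, 2.12 and 2.27 in arch (11.4-fold). Npr3, a receptor of natriuretic peptides that marks endocardium, rose 7.04-fold and Nfatc1, the factor of valve endocardium, 3.73-fold. Several genes shared by all endothelium were higher in heart as well. Pecam1 had 155, 139.9 and 151 scaled CPM in the hearts and 45.7, 50.4 and 54.2 in the arches (2.97-fold), and Cdh5, vascular endothelial cadherin, rose 2.64-fold. The angiopoietin receptor Tek was 9.48-fold higher in heart. Against the rest of the group, Robo4 and Fli1 were 3.35-fold and 3.29-fold higher in arch, with no overlap between libraries (adjusted p = 4.7e-07 and 3.6e-07).

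Epicardial and mesothelial genes were higher in heart for 12 of 22 and lower for 3, with a median log2 fold change of 1.15. Wt1, the zinc finger factor of epicardium and body cavity lining, had 49.8, 46.8 and 49.4 scaled CPM in the hearts and 0.228, 0.354 and 0.597 in the arches (adjusted p = 6.9e-12). Upk3b, a uroplakin of mesothelium, had 144, 124 and 159 in heart and 0.114, 0 and 1.08 in arch. Tbx18 and Tcf21, factors of the proepicardium and its derivatives, rose 35.4-fold and 13.01-fold, with Tcf21 at 1.94, 4.25 and 5.38 in the arches, where it also marks head muscle precursors. Aldh1a2, the retinaldehyde dehydrogenase of epicardium, rose 2.93-fold. Bnc2, 1 of the 3 members lower in heart, had 1.72, 3.41 and 8.49 in the hearts and 45.3, 50.4 and 48.2 in the arches. It was 10.6-fold higher in arch (adjusted p = 0.0042).

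**Figure D2:**
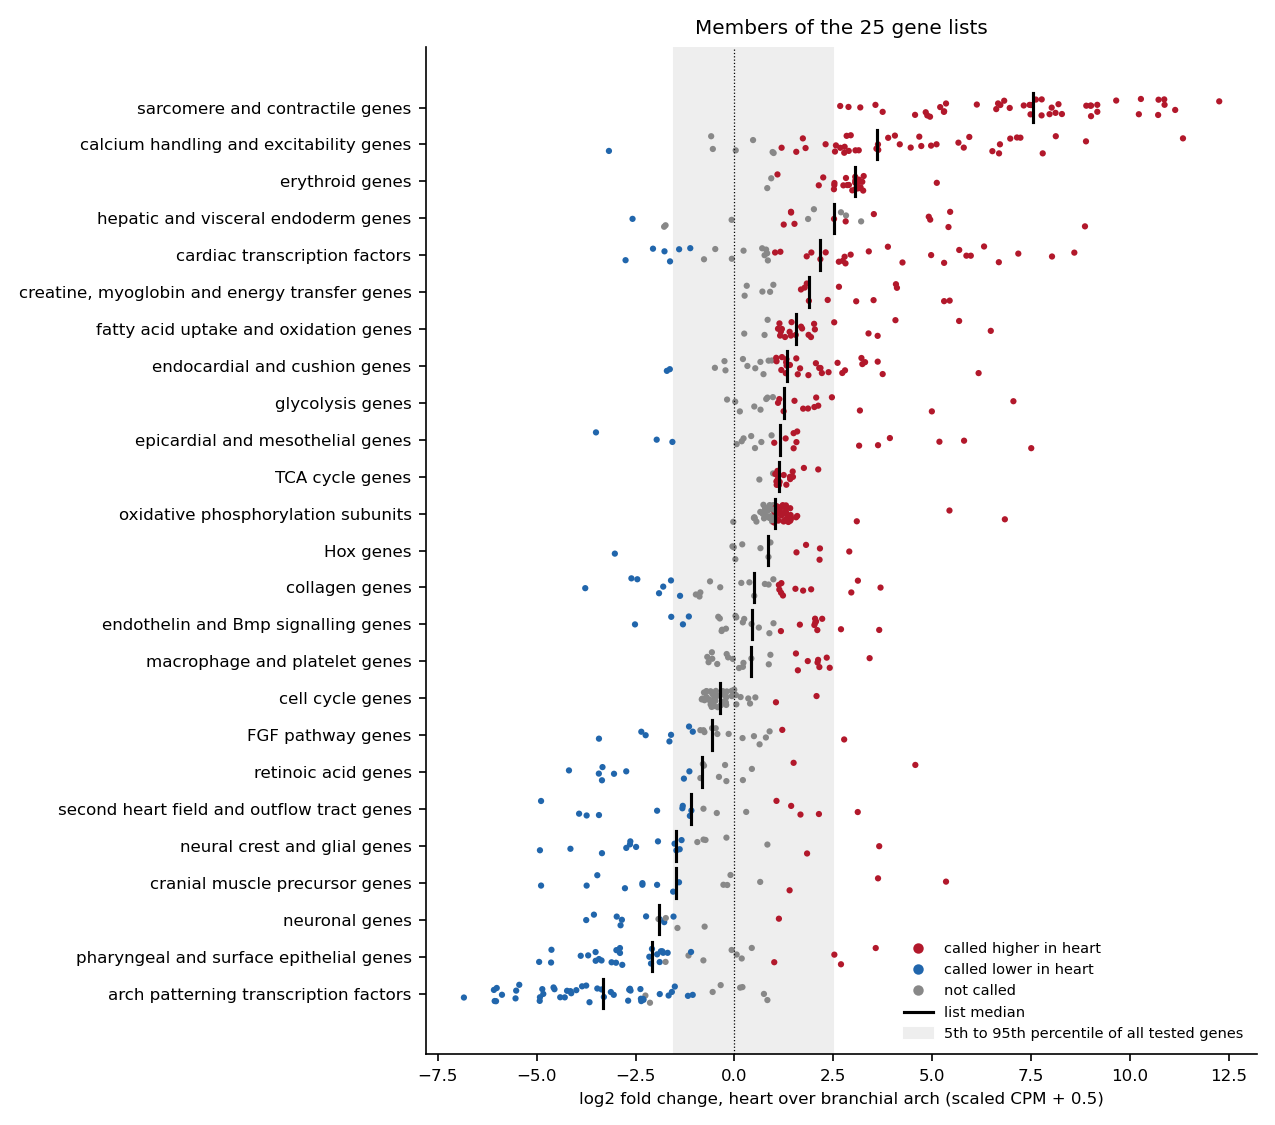
Log2 fold change of heart over branchial arch for each tested member of the 25 gene lists, 1 row a list in the order of the medians (black bars). Red members were called higher and blue members lower in heart, grey members were not called, and the grey band holds the 5th to 95th percentile of all 13359 tested genes. Sarcomere genes lie furthest to the right with a median of 7.56 and arch patterning factors furthest to the left with -3.33.

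On the side of the arch, patterning transcription factors had the lowest median of the 25 lists. Of 52 tested, 44 were lower in heart and 0 higher, against 9.5% of all genes lower, with a median log2 fold change of -3.33. Their summed level was 3656, 3599 and 3552 scaled CPM in the arches and 708, 725 and 983 in the hearts. Heart replicate 3 was highest among the hearts, and the count was 39 without heart replicate 2 and arch replicate 1. Ets1, a factor of crest and of endothelium, was the largest exception in the other direction, 1.78-fold higher in heart and under the 2-fold limit.

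The Dlx genes moved as a set. Dlx1 and Dlx2, which lie side by side at chr2:71528113-71533981 and chr2:71543408-71546754, act along the whole arch. Dlx1 had 86.3, 85.1 and 76.5 scaled CPM in the arches and 1.32, 0.569 and 0.557 in the hearts. Dlx2 had 88.9, 89.3 and 86.9 in the arches and 1.99, 1.42 and 0.975 in the hearts, which gives it a 60.5-fold difference. Dlx5 and Dlx6, at chr6:6877801-6882068 and chr6:6863334-6867970, and Dlx3 and Dlx4, at chr11:95120117-95125296 and chr11:95140447-95146294, are nested in the lower arch. Dlx6 had 37.1, 44.1 and 45.9 in the arches and 0.265, 0.284 and 0.139 in the hearts, under the worth of 3 reads in each heart. Dlx3 had 66.1, 78.96 and 77.2 in arch and 0.265, 0.427 and 1.67 in heart, and Dlx4 had 4.67, 4.84 and 5.86 in arch and 0, 0 and 0.557 in heart. All 6 genes were called, against 26.7% of all genes, with log2 fold changes from -6.06 to -3.12. For none did any library overlap, as for 77.7% of all genes. The non-coding genes Dlx1as and Dlx6as1 fell by 6.78 and 6.36 on the log2 scale, the largest differences after Pitx1 in that direction. Dlx1as overlaps Dlx1 on the other strand, and the libraries were stranded but the strand setting of the counting is not given in the sources used here.

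Among other homeobox and forkhead factors, Pitx1, a factor of the lower jaw and the hindlimb, had 113, 109.6 and 143 scaled CPM in the arches and 0.132, 0.427 and 1.53 in the hearts. Its log2 fold change of -6.84 ± 0.46 (SE) was the largest in favour of arch (adjusted p = 6.9e-05). Lhx8, a LIM factor of the oral side of the arch, had 71.04, 57.1 and 51.7 in the arches and 0.397, 0.711 and 0.139 in the hearts. Its relative Lhx6 was 21.1-fold higher in arch. Barx1, a factor of the tooth and jaw mesenchyme, was 29.8-fold higher in arch and Msx1, a target of Bmp signalling, 8.32-fold. Emx2, Foxd1 and Mab21l1 fell by 5.52, 5.44 and 5.71 on the log2 scale. In the hearts Emx2 had 0.132, 0.142 and 0.139 scaled CPM, Foxd1 0.265, 0.427 and 0.696 and Mab21l1 0.662, 0.853 and 1.25, all far below the arches. Of the remaining genes among the 15 largest differences in favour of arch, AI606473 had 59.1, 47.1 and 36.6 in arch and 0, 0.284 and 0 in heart and 3110099E03Rik 24.6, 30.3 and 25.2 in arch and 0.265, 0 and 0 in heart.

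Mesenchymal factors were higher in arch but less absent from the heart. Prrx1, a factor of craniofacial and limb mesenchyme, had 609.7, 611 and 496 scaled CPM in the arches and 13.9, 16.2 and 31.05 in the hearts, 28.1-fold higher in arch. Prrx2, its paralogue, had 71.3, 65.4 and 66.7 in arch and 53.7, 44.1 and 63.2 in heart, 1.26-fold higher in arch, past the adjusted p (0.017) and under the 2-fold limit. Twist1, a basic helix-loop-helix factor of crest mesenchyme, was 5.11-fold higher in arch. In several of these genes heart replicate 3 stood above the other hearts. Alx4, an aristaless-type factor, had 3.31, 2.99 and 25.6 scaled CPM in the hearts and 129, 111 and 128 in the arches. It fell by 4.13 on the log2 scale with an adjusted p of 0.015, and its log2 fold change was -5.07 without heart replicate 3 (adjusted p = 5.3e-15). Without arch replicate 1, arch replicate 3 or heart replicate 1 it lost the call, at adjusted p of 0.054, 0.052 and 0.051. Gsc, goosecoid, had 0.397, 0.711 and 4.46 in heart and 33.5, 39.8 and 50.1 in arch, with a log2 fold change of -4.55 and of -5.30 without that heart. Cxcl14, a chemokine of arch and skin, had 0.397, 0.142 and 6.68 in heart and 58.9, 62.9 and 67.5 in arch, with -5.31 and -6.39. Both lost the call without heart replicate 2 and arch replicate 1 together (adjusted p of 0.079 for Gsc and 0.101 for Cxcl14), as did Alx4 (0.139). The part of arch tissue in heart replicate 3 was not tested.

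The other tissues of the arch showed in their own genes. Pharyngeal and surface epithelial genes were lower in heart for 26 of 37 and higher for 4, with a median log2 fold change of -2.09. Trp63, the factor of stratified epithelium, had 56.8, 56.1 and 51.3 scaled CPM in the arches and 1.46, 0.853 and 3.62 in the hearts (27.7-fold), and Krt5, a basal keratin, 15.9, 14.6 and 19.7 in arch and 0, 0 and 0.835 in heart. Cdh1, E-cadherin, was 9.97-fold and Epcam 7.17-fold higher in arch, and both had an adjusted p above the limit (0.052 and 0.071) without heart replicate 2 and arch replicate 1. The 4 genes higher in heart were Dsp, a desmosome protein that heart muscle shares, at 511, 459 and 518 in heart and 81.4, 88.99 and 86.8 in arch (5.79-fold), Edn1, Krt19 and Sox3. Sox3, a factor of pharyngeal and neural epithelium, had 11.7, 5.83 and 10.02 in the hearts and 0.114, 0 and 1.08 in the arches. Krt8, a keratin of simple epithelium and mesothelium, overlapped between the tissues, at 48.9, 56.6 and 73.4 in heart and 47.4, 57.4 and 50.9 in arch.

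Neural crest and glial genes were lower in heart for 12 of 19 and higher for 2. Cranial muscle precursor genes were lower for 9 of 16 and higher for 3. The shares of all genes were 9.5% lower and 17.2% higher. Tfap2b, an AP-2 factor of crest, had 56.2, 47.4 and 43.1 scaled CPM in the arches and 0.927, 0.284 and 3.34 in the hearts (32.2-fold). Sox10, which marks migrating crest and glia, had 18.2, 3.54 and 8.24 in the arches and 0.795, 0.427 and 1.81 in the hearts, 9.897-fold higher in arch. Like the neuronal markers it was highest in arch replicate 1, and their part in it was not tested. Its adjusted p was 0.013 with all libraries, 0.0019 without arch replicate 1 and 0.057 without heart replicate 2. In the muscle core, Myf5 and Myod1, which commit cells to skeletal muscle, were low in both tissues and lower in heart. Myf5 had 2.16, 3.07 and 3.704 scaled CPM in the arches and 0.132, 0.142 and 0.278 in the hearts, and Myod1 3.19, 2.95 and 6.09 in the arches and 1.06, 0.427 and 1.81 in the hearts. Msc, musculin, had 6.15, 4.37 and 4.06 in the arches and 0.132, 0 and 0.975 in the hearts, a log2 fold change of -2.77 ± 0.37 (SE). The 3 members higher in heart were Des, Tcf21 and Chrng, of which Des is also a gene of heart muscle and Tcf21 one of epicardium.

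Neuronal genes were lower in heart for 9 of 14 tested, and this count depended on the libraries, with 5 without heart replicate 3, 6 without heart replicate 2 or arch replicate 3 and 13 without arch replicate 2. Tubb3, a neuronal tubulin, had 108, 25.1 and 55.1 scaled CPM in the arches and 21.99, 16.8 and 19.4 in the hearts. The libraries did not overlap, but the spread over the arches was wide and the gene was not called (adjusted p = 0.089, and 0.11 without arch replicate 1). It was called without arch replicate 2 (adjusted p = 0.0096), with no variance trend (0.038) and with all 27 libraries in the model (0.0014). Neurod1, a factor of sensory neurons, had 9.56, 1.18 and 3.11 in the arches and was listed at 0 in every heart.

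In the endothelin and Bmp pathways 10 of 27 genes were higher and 4 lower in heart, against 17.2% and 9.5% of all genes. The median log2 fold change was 0.43. Edn1, the ligand that sets lower jaw identity through Dlx genes, had 14.2, 8.39 and 9.61 scaled CPM in the hearts and 0.797, 1.06 and 1.91 in the arches, 8.53-fold higher in heart (adjusted p = 6.9e-07). Its receptor on crest cells, Ednra, had 62.7, 55.4 and 75.3 in heart and 74.1, 73.3 and 75.6 in arch. These overlapped and did not pass the test (adjusted p = 0.056). Ednrb, the other receptor, had 121, 103 and 100.2 in the hearts and 12.6, 5.67 and 7.29 in the arches (12.7-fold). Bmp ligands Bmp7 and Bmp4 had log2 fold changes of 2.22 and 1.06, the latter under the 2-fold limit without heart replicate 3 (0.9999), while the antagonist Nog rose 5.41-fold. The antagonists Grem1 and Chrd and the receptor Bmpr1b fell by 1.60, 1.30 and 2.51 on the log2 scale.

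FGF pathway genes were lower in heart for 7 of 21 and higher for 2, against 9.5% and 17.2% of all genes. The receptor Fgfr1 had 269.7, 278 and 295 scaled CPM in the arches and 85.1, 88.1 and 104 in the hearts. It was 3.04-fold and Fgfr2 3.15-fold higher in arch. Fgf10, a ligand of the second heart field and pharyngeal mesoderm, was 1.76-fold higher in arch and under the 2-fold limit. Fgf1 was the largest difference towards heart, at 15.5, 13.2 and 11.8 in heart and 0.911, 1.77 and 2.15 in arch.

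Retinoic acid genes were lower in heart for 8 of 18 and higher for 2, against 9.5% and 17.2% of all genes. Without heart replicate 2 and arch replicate 1, 5 were lower. Aldh1a1, which makes retinoic acid, had 43.7, 35.97 and 34.5 scaled CPM in the hearts and 0.569, 0.5901 and 3.11 in the arches. Aldh1a2, the main enzyme of this step in the embryo, had 51.1, 39.8 and 68.6 in the hearts and 18.8, 15.8 and 19.96 in the arches. Aldh1a3, another enzyme of this step, was lower in heart at 0.265, 0.142 and 1.11 in heart and 2.16, 2.01 and 1.19 in arch (adjusted p = 0.0056). The receptor Rarg had 15.8, 16.5 and 25.9 in heart and 214, 195 and 216 in arch (10.8-fold higher in arch), and Cyp26a1, which degrades retinoic acid, 0.265, 0.284 and 0.835 in heart and 7.86, 9.21 and 9.68 in arch. Crabp2, a retinoic acid-binding protein, was 16.7-fold higher in arch. Crabp1, its relative in crest, had 11.4, 14.8 and 69.3 in the hearts with heart replicate 3 far above the others, and 279, 222 and 215 in the arches. Its adjusted p was 0.017 with all libraries and 1.5e-07 without heart replicate 3. With heart replicate 2 or any arch replicate left out it rose above 0.05 (0.054 to 0.062), and the call was lost.

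Of 39 Hox genes 26 were too low to test, and of the 13 tested 5 were higher and 1 lower in heart. Of all genes tested, 17.2% were higher and 9.5% lower. Hoxa4, Hoxa5, Hoxc4 and Hoxc5 reached 1 CPM in all 3 hearts and in at most 1 arch. They entered the test through the heart, so the count of higher members is not a result about Hox genes. Hoxa2, the selector of the second arch, had 17.9, 31.04 and 27.8 scaled CPM in the arches and 1.46, 2.56 and 4.59 in the hearts (8.91-fold). Hoxa5 had 3.97, 6.26 and 5.71 in the hearts and 0, 0.118 and 0.956 in the arches, and Hoxa4 rose by 2.15 on the log2 scale. Hoxb4 rose by 1.81 with libraries that overlapped, and its call was lost with arch replicate 1, arch replicate 2, heart replicate 2 or heart replicate 3 left out (adjusted p from 0.12 to 0.15).

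Metabolic genes were higher in heart across several pathways. Of 79 subunits of oxidative phosphorylation tested, 45 were called higher in heart and 0 lower, and 78 were higher by the adjusted p alone, against 37.2% of all genes. The median log2 fold change was 1.03, so most members sat at the 2-fold limit, and the count of calls was 27 with CPM as deposited. With CPM as deposited the median of all genes is -0.16 in place of -0.02, and 78 members still passed the adjusted p. Atp5b, the beta subunit of ATP synthase, had 3754, 3371 and 3311 scaled CPM in the hearts and 1413, 1427 and 1399 in the arches (2.46-fold, adjusted p = 1.7e-11). TCA cycle genes were higher for 18 of 20 (8 with CPM as deposited), and 20 of 20 passed the adjusted p under both scalings. Idh3a, a subunit of isocitrate dehydrogenase, rose 4.37-fold. Fatty acid uptake and oxidation genes were higher for 22 of 25 and genes of creatine, myoglobin and energy transfer for 12 of 17, with 0 lower in either group.

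Isoforms of the same enzyme differed in the size of their change. Cox6a2, the muscle form of a cytochrome oxidase subunit, had 64.4, 61.4 and 56.2 scaled CPM in the hearts and 0.114, 0 and 0 in the arches, while Cox6a1, the general form, had 309, 267 and 281 in heart and 110.4, 116 and 110.4 in arch (2.54-fold). Cox7a1 and Cox7a2 had log2 fold changes of 5.43 ± 0.26 (SE) and 1.10 ± 0.07 (SE) in the same roles. Cox8b had 3.84, 3.98 and 3.48 scaled CPM in the hearts and was listed at 0 in every arch, and Cox8a was 2.35-fold higher in heart. Cpt1b, the muscle carnitine palmitoyltransferase that admits fatty acids to mitochondria, had 209, 169 and 157 in heart and 3.87, 0 and 3.11 in arch, and Cpt1a, the liver form, 31.7, 28.9 and 33.4 in heart and 11.95, 10.3 and 16.3 in arch. Fabp3, a fatty acid-binding protein, rose 60.7-fold and Cd36, a fatty acid transporter, 20.8-fold. Mb, the oxygen store myoglobin, had 48.6, 33.1 and 33.7 in the hearts and 0.228, 0.472 and 0.478 in the arches. The regulators Ppargc1a and Esrrg, a coactivator and a nuclear receptor of mitochondrial genes, rose 19.98-fold and 53.5-fold.

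**Figure D3:**
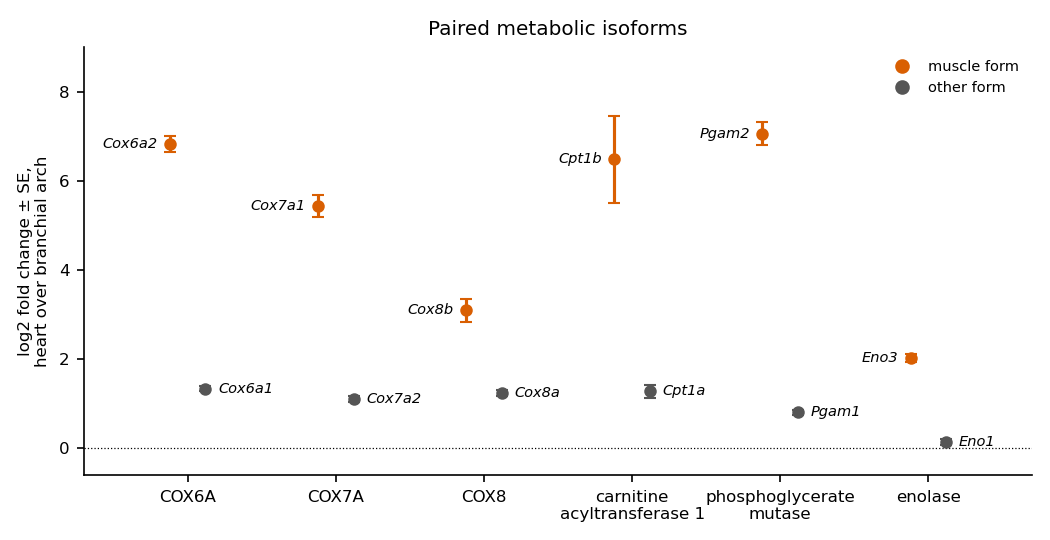
Log2 fold change of heart over branchial arch, with its SE, for muscle forms (orange) and other forms (grey) of 6 enzymes or subunits. Each muscle form lies above its partner, from 2.02 for Eno3 against 0.14 for Eno1 to 7.05 for Pgam2 against 0.80 for Pgam1, and the differences between partners were not tested.

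Glycolysis genes rose as well, 13 of 21 called higher and 0 lower, with a median log2 fold change of 1.24. Pgam2, the muscle phosphoglycerate mutase, had 259, 216 and 213 scaled CPM in the hearts and 0.683, 1.298 and 1.91 in the arches, against 1.74-fold for Pgam1. Hk1, a hexokinase, was 9.08-fold and the glucose transporter Slc2a1 5.53-fold higher in heart. Eno1, the general enolase, had 272, 258 and 235 in heart and 239.5, 209 and 249 in arch, which overlapped, with a log2 fold change of 0.14 (adjusted p = 0.11) that was -0.00757 with CPM as deposited (adjusted p = 0.93).

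Cell cycle genes went slightly the other way. Of 44 tested, 2 were called, both higher in heart, while 31 were lower in heart by the adjusted p alone, against 37.3% of all genes, with a median log2 fold change of -0.36. Top2a, the topoisomerase of dividing cells, had 477, 513 and 511 scaled CPM in the hearts and 804, 856 and 794 in the arches (1.63-fold higher in arch), and Mki67 562, 576 and 595 in heart and 661, 699 and 641 in arch (1.16-fold). Ccnd1, a cyclin of the start of the cycle, was 1.78-fold higher in arch. Cdkn1c, the cyclin-dependent kinase inhibitor p57, had 1589, 1404 and 1411 in the hearts and 345, 327 and 373 in the arches (4.22-fold, adjusted p = 1.0e-11). Ccnd3 rose 2.07-fold, at a log2 fold change of 0.9987, under the 2-fold limit, without heart replicate 1.

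Collagen genes were split between the tissues, with 11 of 29 higher and 7 lower in heart, against 17.2% and 9.5% of all genes. Basement membrane chains were among the higher, with Col4a1 at 1226, 1099 and 1142 in heart and 480.4, 487 and 514 in arch (2.34-fold) and Col4a5 at 314, 258 and 288 in heart and 30.5, 35.1 and 31.9 in arch (8.82-fold). Of the cartilage-type chains, Col9a1 had 38.6, 30.99 and 48.5 in the hearts and 210.1, 248 and 259 in the arches (6.08-fold higher in arch), while Col9a3 was 1.75-fold higher in heart, past the adjusted p (3.0e-04) and under the 2-fold limit. Col15a1, a chain found beside basement membranes, was 12.5-fold higher in arch, with an adjusted p of 0.0034 and of 0.074 without heart replicate 2 and arch replicate 1.

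Genes of blood cells and of hepatic and visceral endoderm stood beside these results. Where their transcripts came from was not tested. Erythroid genes were higher in heart for 28 of 30 and lower for 0, with a median log2 fold change of 3.05. Hbb-y, the embryonic beta-globin and the gene with the highest CPM in every heart library, had 17170.4, 13818 and 12022 scaled CPM in the hearts and 1649, 1476 and 1353 in the arches (9.61-fold). Hbb-bh1 and Hba-x, the other embryonic globins, differed 9.198-fold and 8.86-fold, Alas2, of heme synthesis, 8.98-fold and Klf1, the erythroid factor, 9.15-fold. Summed over 5 markers the levels were 34079, 28582 and 23398 in the hearts and 3414, 3057 and 2777 in the arches, a 9.31-fold difference. Tfrc and Bpgm, which many cell types express, were 1.92-fold and 1.79-fold higher. Leaving the erythroid and hepatic genes out of the library totals gave 2263 genes higher and 1260 lower in heart.

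Hepatic and visceral endoderm genes were higher in heart for 12 of 21 tested and lower for 1, against 17.2% and 9.5% of all genes. Of 52 members in the data, 31 were too low to test and 29 were at 0 in every arch. A member at 0 in the arches, such as Afp, could be tested only if all 3 hearts reached 1 CPM. The count of higher members is therefore favoured by the filter. Afp, alpha-fetoprotein, had 36.04, 1465 and 233 scaled CPM in the hearts and was listed at 0 in every arch. Heart replicate 2 was far above the others, and the log2 fold change was 8.86 with an adjusted p of 0.0057, and 7.53 without that replicate (adjusted p = 0.0031). Alb, albumin, had 2.65, 142 and 20.9 and was also listed at 0 in the arches, with an adjusted p of 0.032 that was 0.0096 without heart replicate 2 and between 0.088 and 0.091 without heart replicate 3 or any arch replicate. Apoa1 and Trf were not called with all libraries, at adjusted p of 0.068 and 0.067, and were called without heart replicate 2 (8.4e-04 and 0.012). The count of members higher in heart was 16 without heart replicate 1, 15 without heart replicate 2, 8 without heart replicate 3, 6 without arch replicate 1 or 2 and 7 without arch replicate 3. The part of these transcripts in other results was not tested, and the contractile count was 46 of 46 without heart replicate 2.

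Macrophage and platelet genes were higher in heart for 9 of 23 and lower for 0, against 17.2% and 9.5% of all genes. Lyz2, the member with the largest difference, had 29.4, 21.6 and 21.7 scaled CPM in the hearts and 1.71, 1.89 and 1.79 in the arches. It was 13.5-fold higher in heart (adjusted p from limma 5.7e-10) and is not in the marker totals. The platelet markers summed to 39.2, 72.4 and 38.98 scaled CPM in the hearts and 9.45, 7.79 and 11.1 in the arches, with Pf4, platelet factor 4, 4.91-fold higher. The totals of 3 macrophage markers, Csf1r, C1qa and Ptprc, overlapped. They were 4.37, 15.6 and 10.2 in the hearts and 9.68, 9.68 and 8.84 in the arches (exact permutation test, two-sided, p = 0.7). For the other 13 marker totals the tissues did not overlap, and the exact permutation p was 0.1, the smallest that 3 against 3 libraries allow. Arch mesenchyme markers were 7.47-fold higher in arch at 611, 591 and 613, yet 79.8, 69.4 and 93.8 in the hearts, of which Prrx2 made up most. Epicardial markers were 46.1-fold and endothelial markers 3.44-fold higher in heart.

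**Figure D4:**
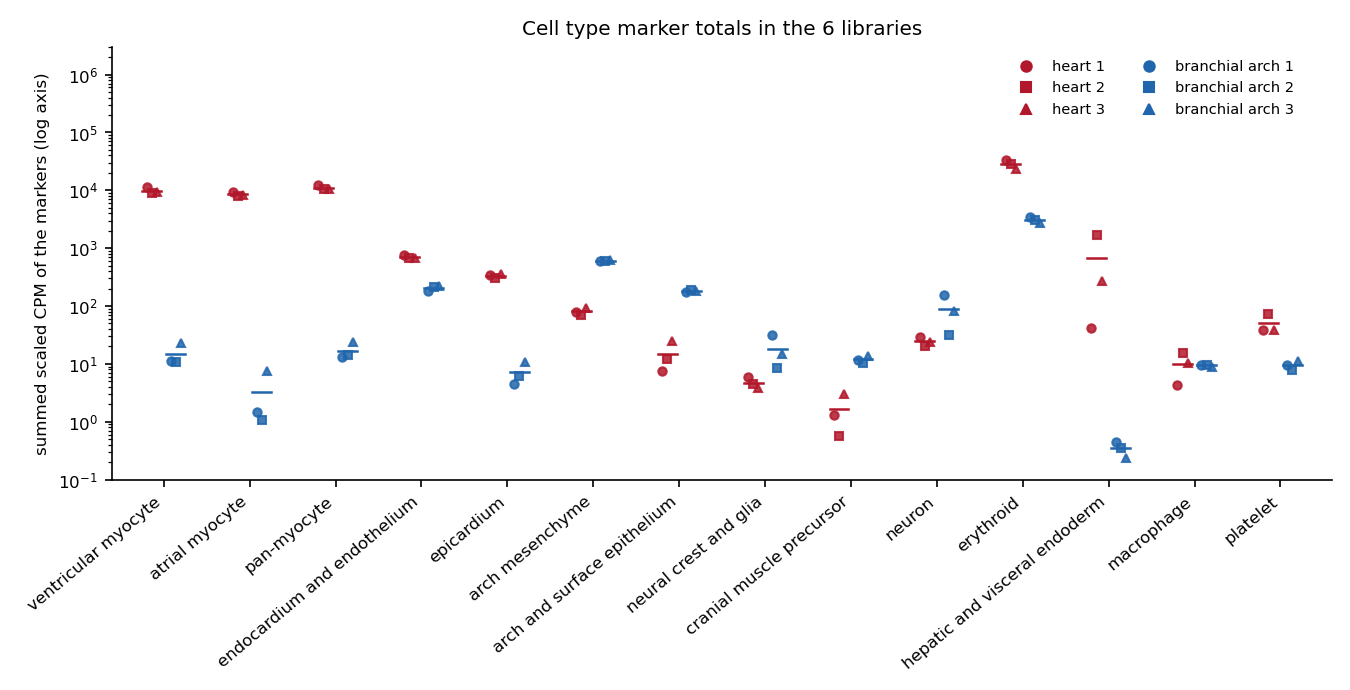
Summed scaled CPM (log axis) of the markers of 14 cell types in each of the 3 heart (red) and 3 branchial arch (blue) libraries, with bars at the mean. The tissues are separate for 13 of the 14 totals. The hepatic total of the hearts runs from 42.5 to 1707, the neuron total of the arches from 31.6 to 156, and the macrophage totals overlap.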

How the data were processed

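Heart and branchial arch RNA was analysed in 3 libraries each. The authors mapped single-end reads of stranded libraries to mm10 with HISAT2 2.0.4, ran Cuffdiff (Cufflinks 2.1.1) and edgeR 3.16.2 per the labels, and deposited CPM, which sum to 1000000 per library. The spacing of low values gave the depth (98.9 to 99.1% of values above 0 were whole reads, within 0.05 of a read). Intervals from reads cover counting error only. Count tests were not run, as the deposited unit is CPM.

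Libraries were scaled by an unweighted trimmed mean over all 27 libraries (30% of log ratios and 5% of intensities trimmed). Genes with at least 1 CPM in at least 3 of 6 libraries were tested with limma 3.58.1 (trend, robust) in R 4.3.3 on log2(scaled CPM + 0.5). The script was tested on simulated data. Marker totals were compared by an exact permutation test (scipy 1.17.1).

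Members and the 25 gene lists were chosen with earlier results of these data known. Genes named are Myl2 and Dlx5, members of the lists and markers, and the 15 largest changes per direction with at least 16 CPM in the higher tissue and no overlap. Genes picked later for their values are named so. Some members of the lists are counted but not reported here by name. Positions and promoters are from RefSeq (GRCm38.p6), overlaps from GENCODE.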

Additional observations from a re-analysis of the deposited data

How the results depend on the processing

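Of the 3566 genes called, the count stayed within 1.5 times under the other scalings, filters, pseudocounts and models. It ran from 3438 to 3668 with single replicates left out, with 2260 to 2333 genes higher and 1176 to 1347 lower, and was 3523 without both heart replicate 2 and arch replicate 1, a choice made after seeing the data. Asking limma's treat for a difference beyond 2-fold left 2167 genes, 1527 higher and 640 lower, and the adjusted p alone gave 9955. With CPM as deposited, 56.0% of the calls were higher in heart and otherwise 64.4%, oxidative phosphorylation members called were 27 and TCA cycle members 8, and the log2 ratio of the endothelial marker total was 1.64 in place of 1.78. A filter of 5 CPM left 0 Hox, 3 hepatic and 5 macrophage and platelet members higher in heart, and 4 cranial muscle and 3 neuronal members lower, as fewer genes were tested, and a pseudocount of 2 left 4 hepatic members. Single replicates moved the neuronal count from 5 to 13 and the hepatic count from 6 to 16. Without both libraries 5 retinoic acid members were lower. The cause of these moves was otherwise not tested. Of 195 named genes called and followed through 19 alternatives, 26 lost the call under at least 1 and none turned direction. The other 169 kept it under every alternative in which they were tested. A gene that a filter removed, as that of 5 CPM did Hoxa5, was not counted as lost. The 19 do not include treat. Among genes not called, the log2 fold change changed sign as single replicates were left out for Hand2 (from -0.213 to 0.0504), Csf1r (from -0.467 to 0.432) and Ddx3y (from -0.584 to 0.416, and 0.44 without both heart replicate 2 and arch replicate 1), and for Eno1 with CPM as deposited (-0.00757).

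The same numbers of heart and arch replicates deviated together only weakly (correlations of 0.0576, 0.0756 and 0.0876), while all crossed pairs were below 0. Deviations from a tissue mean sum to 0, so the crossed pairs are tied to the same-number values and add no separate hint. Xist and Ddx3y also kept the same replicate order in both tissues, as described below. These are hints from the data and not the design, so the main fit did not treat the numbers as pairs. Whether libraries of the same number share embryos was not tested. With the replicate block 3570 genes were called, 2294 higher and 1276 lower. Under it Xist was called (log2 fold change -1.45, adjusted p from limma 8.3e-10), and Crabp1 (0.065) and Alb (0.074) lost the call. The edgeR and DESeq2 alternatives were not run, as the values are CPM. Depth limits genes near the worth of 3 reads. No fold of means is given where the mean of a tissue was below that worth, but log2 fold changes are. Folds over an arch mean not far above it, as for Myh6 and Acta1, rest on few reads.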

Other observations

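Outside the gene lists, some of the largest differences were in other genes of muscle, chosen here after their values were seen. Asb2, a ubiquitin ligase adaptor of muscle, had 295, 253 and 252 scaled CPM in the hearts and 0, 0.354 and 0.597 in the arches. Sh3bgr, a protein of striated muscle, had 471, 389 and 381 in heart and 0.797, 0.708 and 0.956 in arch. Apobec2, the muscle member of a deaminase family, had 245, 212 and 203 in heart and 0.342, 0 and 0 in arch, and Fsd2 218, 186 and 189 in heart and 0, 0 and 0 in arch. Pygm, the muscle glycogen phosphorylase, had 283, 238 and 223 in heart and 1.25, 1.65 and 2.39 in arch, and Tmod1, which caps thin filaments, 422, 350.0 and 353 in heart and 2.05, 2.36 and 3.11 in arch. All 6 were called, as was Hspb7, a small heat shock protein of heart and muscle that is among the 15 largest differences, at 824, 659 and 675 in heart and 0.228, 0 and 1.43 in arch. On the arch side, Pou3f3, a POU factor of arch mesenchyme, had 47.02, 33.2 and 20.9 scaled CPM in the arches and 0.397, 0.284 and 0.557 in the hearts. Pcdh10, a protocadherin, had 61.8, 63.1 and 62.1 in arch and 0.927, 1.42 and 1.39 in heart, Magel2, an imprinted gene, 57.3, 60.5 and 67.2 in arch and 2.52, 2.27 and 2.92 in heart, and Edn3, a ligand of Ednrb, 36.7, 29.9 and 31.5 in arch and 0.927, 1.14 and 3.34 in heart. Edn3 was higher in arch, whereas Edn1 and Ednrb were higher in heart.

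Genes of the sex chromosomes varied between replicates in the same order in both tissues. Xist, the RNA of the inactive X chromosome, had 194, 359 and 78.1 scaled CPM in the hearts and 574, 873 and 223 in the arches, and the Y-linked gene Ddx3y had 21.9, 10.4 and 43.02 in heart and 23.7, 13.1 and 38.4 in arch. In both tissues replicate 2 had the most Xist and the least Ddx3y, and replicate 3 the reverse. Both genes were above 0 in all 6 libraries, and neither was called in the fit without a replicate block (adjusted p from limma 0.19 and 0.92). Whether each library pooled embryos of both sexes was not tested.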
